A study of Mus musculus with 6 samples.

Results

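The genes described here are 10 that mark eosinophils in the mouse, Prg2, Epx, Ear1, Ear2, Ear6, Siglecf, Ccr3, Il5ra, Alox15 and Gata1, read in libraries of macrophages sorted from melanomas. They were taken by gene symbol from tables of 23424 genes, and all 10 were found and passed the filter of at least 10 counts over the 6 libraries. They were selected on their read counts in these same libraries, where an earlier analysis had shown them lower in F4/80high, so the differences of its members between the subsets are a description and not a test.

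Bulk RNA-seq was made from tumor-associated macrophages (TAMs) of YUMM1.7 tumors, a mouse melanoma line, which had grown intradermally for 21 days in WT C57Bl/6J female mice that were 8 weeks old at induction and received no treatment. Live CD45+ Lin- CD11b+ cells were collected by flow cytometry as F4/80high or F4/80low, with 3 libraries of each subset, and the F4/80 protein is encoded by Adgre1. Each library came from pooled tumors of an independent experiment. Replicates with the same number were taken as 1 experiment, an assumption that the labels do not state. No antibody to Siglec-F is among those the study names, so no selection on Siglec-F is described for the sort.

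Eosinophils are granulocytes that mature in the bone marrow under IL-5 and enter tissues along eotaxin gradients through the receptor CCR3. Their granules hold a basic protein (Prg2), a peroxidase (Epx) and ribonucleases (the Ear genes), and in the mouse they carry Siglec-F and F4/80 on the surface. They are a known part of the myeloid infiltrate of tumors, although several of the 10 genes are also used by other cells: Alox15 by some macrophages, Siglecf by alveolar macrophages, and Gata1 by erythroid cells, megakaryocytes and mast cells.

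The libraries held 16045281 to 43604373 counts, with 89.4% to 98.1% in protein-coding genes. Replicate 3 of both subsets, drawn as a second batch in the study's own principal component plot, had the fewest counts (16045281 and 16204810) and the lowest protein-coding shares (89.4% and 90%). Levels are given as CPM, counts relative to the library size as scaled by TMM, and 3 counts, taken as the floor, were 0.0582 to 0.0756 CPM in the libraries of batch 1 and 0.324 and 0.342 CPM in batch 2. Macrophage genes were present throughout: Adgre1 stood at 273, 539 and 360 CPM in F4/80high replicates 1, 2 and 3 against 243, 326 and 183 CPM in F4/80low, higher in F4/80high within each experiment (log2 difference 0.67, SE 0.30, adjusted p = 0.673 by edgeR). Cd68 was also higher in F4/80high within each experiment (0.72, SE 0.41), whereas Csf1r was lower in experiment 1, at 719 CPM in F4/80high against 904 CPM in F4/80low, and higher in the others.

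The eosinophil genes were lower in F4/80high than in F4/80low TAMs. Their summed level was 332 ± 188 CPM in F4/80high against 1030 ± 575 CPM in F4/80low (mean ± SD, n = 3 each). In replicates 1, 2 and 3 it was 542, 273 and 180 CPM in F4/80high against 1130, 1550 and 411 CPM in F4/80low. It was thus lower in F4/80high within each of the 3 experiments, while F4/80high replicate 1 lay above F4/80low replicate 3. Alox15, which some macrophages also use, was the largest part of both means (194 CPM for F4/80high, 585 CPM for F4/80low). The overlap of the sums rested on this gene. F4/80high replicate 1 owed 345 of its 542 CPM to Alox15, while F4/80low replicate 3 owed it 135 of 411 CPM. Without Alox15 these libraries would stand in the reverse order. The 10 genes took between 0.0116% and 0.199% of the protein-coding counts of a library. In bulk RNA, fewer cells of a type and less RNA per cell cannot be told apart.

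Of the granule genes, Prg2, which encodes the major basic protein, had 31, 14.1 and 8.1 CPM in F4/80high replicates 1, 2 and 3 against 72.9, 121 and 21.1 CPM in F4/80low. The log2 difference, F4/80high minus F4/80low, was -1.88 (SE 0.37). Every experiment had less Prg2 in F4/80high, but across experiments the subsets overlapped, since F4/80low replicate 3 lay below F4/80high replicate 1. Epx, the eosinophil peroxidase, was close to the floor, with 0, 40 and 1 counts in F4/80high against 58, 27 and 2 in F4/80low, and experiment 2 had slightly more in F4/80high. Its log2 difference of -1.34 (SE 1.59) ran from -4.43 without F4/80high replicate 2 to -0.61 without F4/80high replicate 1, and was -0.86 without F4/80low replicate 1. The low level of Epx stood apart from that of Prg2, a gene of the same granule: per kilobase of gene length, Prg2 was at 85.6 ± 59.8 CPM and Epx at 0.285 ± 0.227 CPM in F4/80low (SD, n = 3).

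The Ear genes encode eosinophil-associated ribonucleases and lie on chromosome 14. Ear2 stood at 9.73, 3.8 and 3.46 CPM in F4/80high against 18.4, 17.4 and 18.8 CPM in F4/80low, so its subsets did not overlap (log2 difference -1.72, SE 0.43). Its 3 F4/80low values were nearly equal, unlike those of any other member. Ear6 had 1.92, 1.69 and 1.62 CPM in F4/80high against 2.25, 8.67 and 6.38 CPM in F4/80low, again without overlap (log2 difference -1.72, SE 0.60, and -1.03 without F4/80low replicate 2). Ear1 was near the floor except in a single library, with 4, 4 and 5 counts in F4/80high against 5, 140 and 2 in F4/80low. Its log2 difference of -2.86 (SE 1.90) rested on F4/80low replicate 2: without that library it was 0.20.

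Ear1 and Ear2 are close copies, and reads could be split between them. In the GENCODE M21 annotation of GRCm38 the coding sequences of Ear1 (465 bases) and Ear2 (468 bases), without the stop codon, were 95.1% identical, and 70 of the 416 windows of 50 bases in Ear1 also occurred in Ear2. Ear6 was 87.3% identical to Ear1 and 87.6% to Ear2 and shared no such window with either. The 60 coding bases where Ear1 and Ear2 differ most are shown, from Ear1 at chr14:43819255-43819314 (minus strand) and Ear2 at chr14:44102982-44103041 (plus strand), with the 5 differing bases in capitals:
Ear1: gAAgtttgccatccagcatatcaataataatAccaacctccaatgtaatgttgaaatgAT
Ear2: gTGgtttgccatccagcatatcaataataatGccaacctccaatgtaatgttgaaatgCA
How reads matching both were counted is not given in the sources used here, so the split between Ear1 and Ear2 is uncertain. The further Ear genes looked up by symbol were absent from the tables, and their sequences were not compared here.

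**Figure D1:**
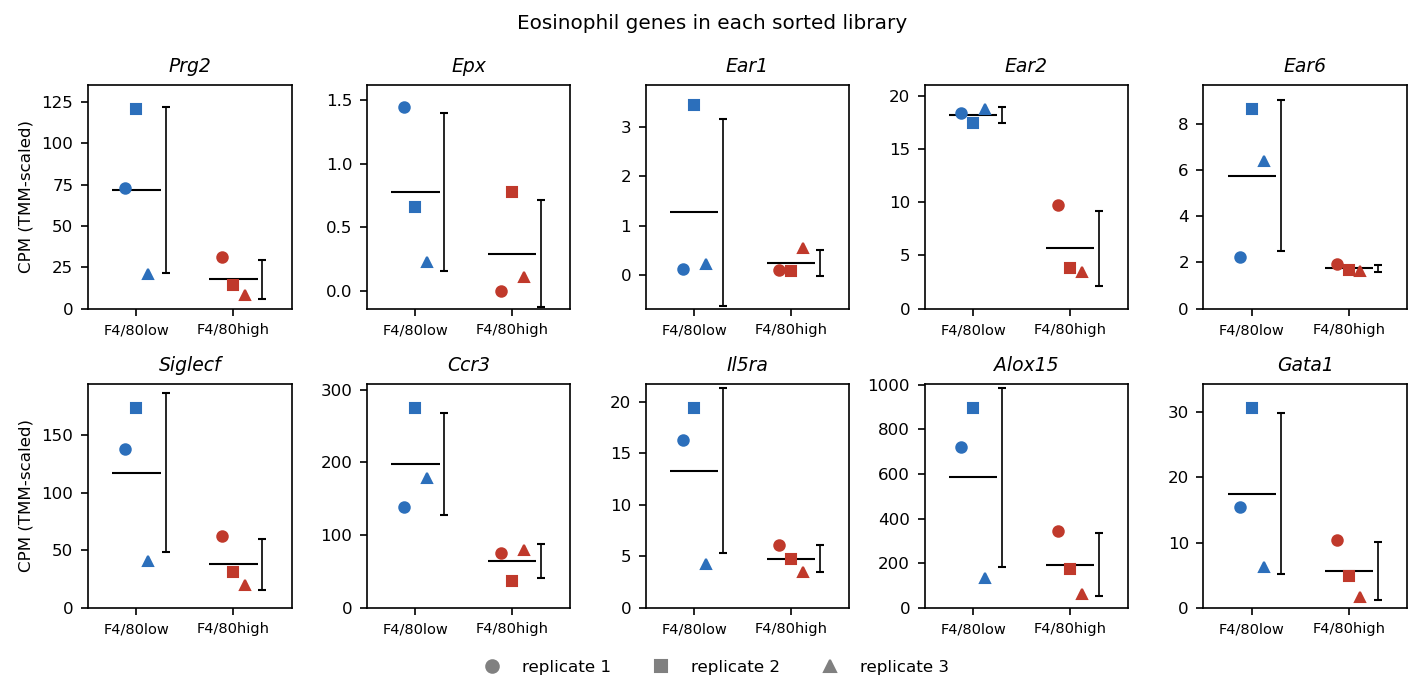
Level of each eosinophil gene in each library, in TMM-scaled CPM on a linear axis of its own for every gene. Points are libraries, with the replicate given by the symbol, the line is the mean and the bar is 1 SD (n = 3). Ear2, Ear6 and Ccr3 show no overlap between the subsets, whereas for Prg2, Siglecf, Il5ra, Alox15 and Gata1 replicate 3 of F4/80low lies below replicate 1 of F4/80high.

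Among the surface receptors, Siglecf, an inhibitory sialic acid-binding lectin used to gate mouse eosinophils, was at 62.4, 31.5 and 19.5 CPM in F4/80high against 138, 174 and 40.7 CPM in F4/80low (log2 difference -1.52, SE 0.31). Ccr3, the eotaxin receptor, was at 75.3, 37 and 79.6 CPM in F4/80high against 139, 275 and 179 CPM in F4/80low (log2 difference -1.65, SE 0.36). The Ccr3 values of the subsets did not overlap, whereas those of Siglecf did. Il5ra, the subunit that binds IL-5, was lower than both, with 6.1, 4.71 and 3.46 CPM in F4/80high against 16.3, 19.4 and 4.21 CPM in F4/80low (log2 difference -1.30, SE 0.41). In experiment 3 its difference was small, -0.28 on the log2 scale, against -1.41 and -2.03 in experiments 1 and 2.

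Alox15, the 12/15-lipoxygenase that oxidizes arachidonic acid, had the highest mean level of the list in both subsets, although Ccr3 was above it in both libraries of batch 2. It stood at 345, 175 and 62 CPM in F4/80high against 722, 897 and 135 CPM in F4/80low (log2 difference -1.47, SE 0.30), and per kilobase it remained first, at 79.1 ± 58.1 CPM in F4/80high against 238 ± 163 CPM in F4/80low (SD, n = 3). Gata1, a transcription factor needed to form eosinophils, was at 10.4, 4.85 and 1.73 CPM in F4/80high against 15.5, 30.6 and 6.26 CPM in F4/80low (log2 difference -1.67, SE 0.43). Both were lower in F4/80high in each experiment, and for both the subsets overlapped across experiments.

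A lower level in F4/80high in all 3 experiments was seen for 8 members, all but Epx and Ear1, and for 15.7% of the 14776 genes tested. No overlap between 3 and 3 libraries was seen for 3 members (Ear2, Ear6 and Ccr3), against 2.88% of all genes in this direction, and within batch 1 for 9 members, all but Epx, against 16.2%. A log2 difference under -1 was seen for all 10, against 9.05% of all genes. The choice of members used this contrast, and nothing is read from these counts. The difference was largest in experiment 2, where the median of the members was -2.41 on the log2 scale, and smaller in experiments 1 and 3, at -0.99 and -1.14. Over all genes the same medians were 0.01, -0.02 and 0.00.

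**Figure D2:**
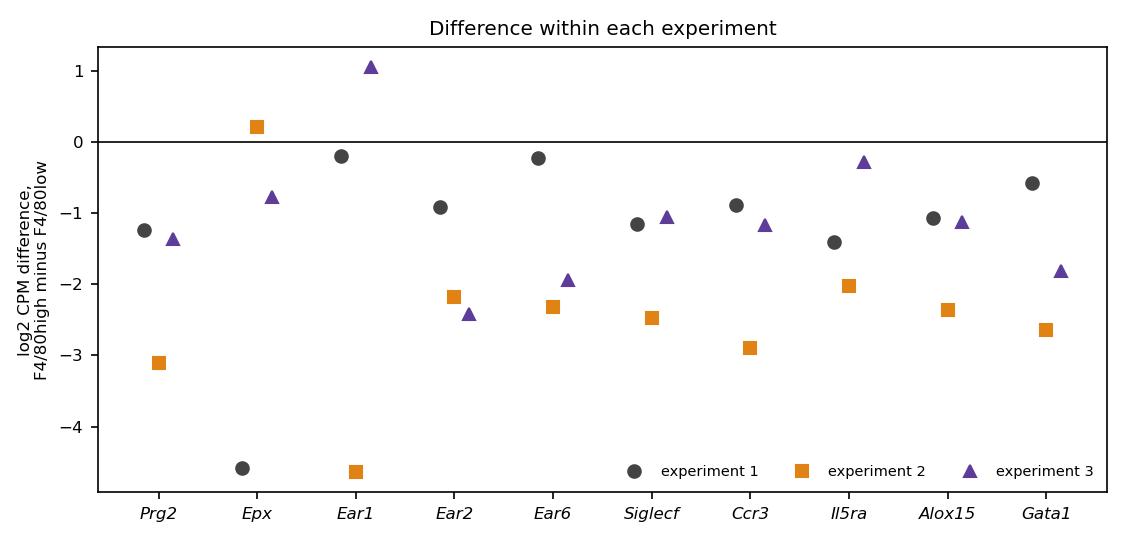
Log2 CPM of F4/80high minus F4/80low within each of the 3 experiments, for each eosinophil gene. Points below 0 are lower in F4/80high. Ear1 in experiment 3 and Epx in experiment 2 lie above 0, and for Prg2, Siglecf, Ccr3, Il5ra, Alox15 and Gata1 experiment 2 gives the lowest point.

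With edgeR's quasi-likelihood test across all genes and a batch term, no member had an adjusted p under 0.05, the lowest being 0.443 for Prg2, Siglecf and Alox15. The same fit called 0 of 14776 genes (0%) at an adjusted p under 0.05 and an absolute log2 difference above 1, while 1118 (7.57%) had an unadjusted p under 0.05. Of the members, 8 had an unadjusted p under 0.05 and a lower level in F4/80high, against 4.3% of all genes. DESeq2 with the same terms called 6 members lower (Prg2, Ear2, Siglecf, Ccr3, Alox15 and Gata1), with adjusted p-values from 0.000847 for Prg2 to 0.0331 for Gata1, against 0.797% of the 13057 genes to which DESeq2 gave an adjusted p. With the experiment as a block, edgeR called 0 members and 76 genes in all (0.284% lower), and DESeq2 called the same 6 members, against 1.72% of those 13057 genes lower. Without F4/80high replicate 1, edgeR called Ear2 (adjusted p = 0.047). The call thus depended on the tool.

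The genes differed in how they followed the batch. In the same edgeR fit, 5 members were called lower in batch 2 than in batch 1: Alox15 (log2 difference -2.32, adjusted p = 0.000848), Gata1 (-1.99, 0.0102), Prg2 (-1.84, 0.00676), Siglecf (-1.60, 0.00572) and Il5ra (-1.33, 0.0454). Of all genes 37.9% were called between the batches, 20.1% lower in batch 2. The other well-detected members stood closer to the median of all genes, which was -0.35: Ear2 at -0.39, Ear6 at 0.05 and Ccr3 at 0.16. Scaling by library size alone moved that median to -1.37 and put Ccr3 at -0.88, Ear6 at -0.99 and Ear2 at -1.43, so the sign of Ccr3 and Ear6 depended on the scaling, while relative to the median both remained higher. Under that scaling Ear2 was also called lower in batch 2 (edgeR adjusted p = 0.0366). Il5ra lost its call with RLE scaling and without F4/80high replicate 1, F4/80low replicate 1 or F4/80low replicate 2, and Gata1 lost its call without F4/80high replicate 3. Both batch 2 libraries had the low totals and protein-coding shares given above, and the part of these in the batch difference was not tested. Only 2 libraries, 1 of each subset, formed batch 2. Without F4/80low replicate 3, only Alox15 was called, at -2.07.

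Ratios between members within a library removed the scaling. Relative to Siglecf, Alox15 was at 5.14 to 5.56 in the 4 libraries of batch 1, a range of 1.08-fold, although Siglecf itself ran from 31.5 to 174 CPM there. In batch 2 this ratio was 3.17 in F4/80high against 3.31 in F4/80low. Prg2 relative to Siglecf was at 0.414 to 0.695 over all 6 libraries and Il5ra at 0.0977 to 0.177. Ccr3 relative to Siglecf was at 1.01 to 1.57 in batch 1 and at 4.07 and 4.39 in batch 2, so that the ratio separated the batches and not the subsets. Ear2 relative to Siglecf lay at 0.0998 to 0.156 in batch 1 and at 0.177 and 0.462 in batch 2. Gata1 ranged 1.98-fold and Ear6 9.63-fold over the 6 libraries.

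**Figure D3:**
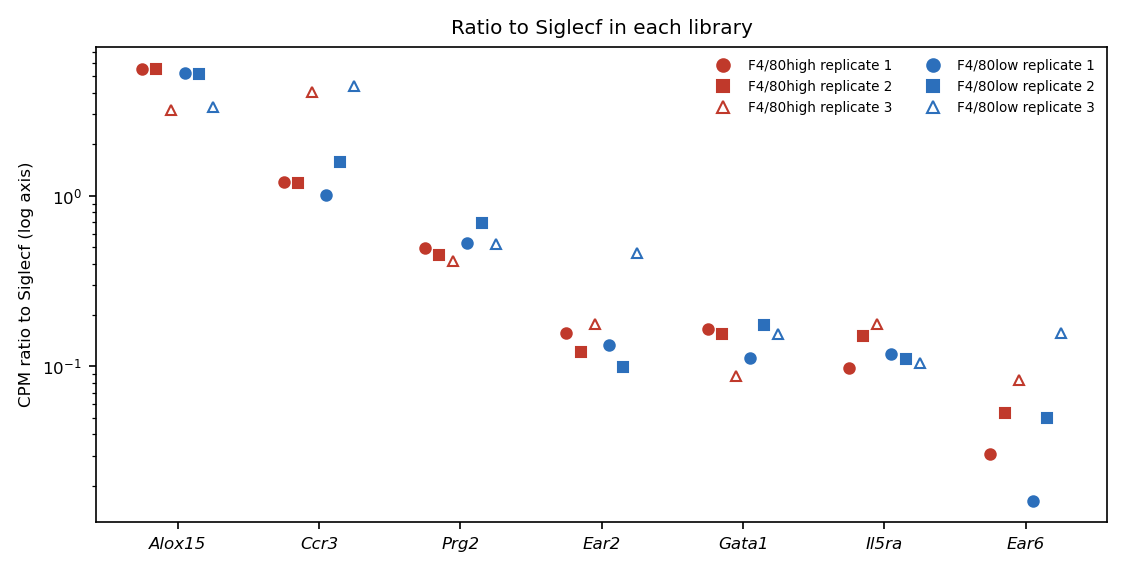
Ratio of the CPM of 7 eosinophil genes to that of Siglecf in each library, on a log axis, with open symbols for batch 2. The 4 filled points of Alox15 lie within 1.08-fold of each other, and the open points of Ccr3, at 4.07 and 4.39, lie above its filled points at 1.01 to 1.57.

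Over the 6 libraries the members varied together to different degrees. Pearson's r of log2 CPM over the 45 pairs of genes ran from 0.12 to 1.00 with a median of 0.62. These libraries share subset, experiment and depth, and the correlations are a description with no p. Prg2, Siglecf, Il5ra, Alox15 and Gata1, grouped after their values were seen, had r of 0.90 to 1.00 among themselves (10 pairs, median 0.97), and shared the order F4/80low replicate 2, F4/80low replicate 1, F4/80high replicate 1 from the top. Ear2, Ear6 and Ccr3 had r of 0.73 to 0.86 among themselves and 0.40 to 0.80 with those 5. With the batch means subtracted, the r between these groups rose to a median of 0.91, but the subset difference used to choose the members remained. With the subset means subtracted, the first 5 kept a median r of 0.95 among themselves. The median between these groups was then 0.17, and that over all 45 pairs fell to 0.23. The first 5 are also the members called lower in batch 2, and the batch difference remained after this subtraction. Epx and Ear1 had median r of 0.38 each with the others.

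**Figure D4:**
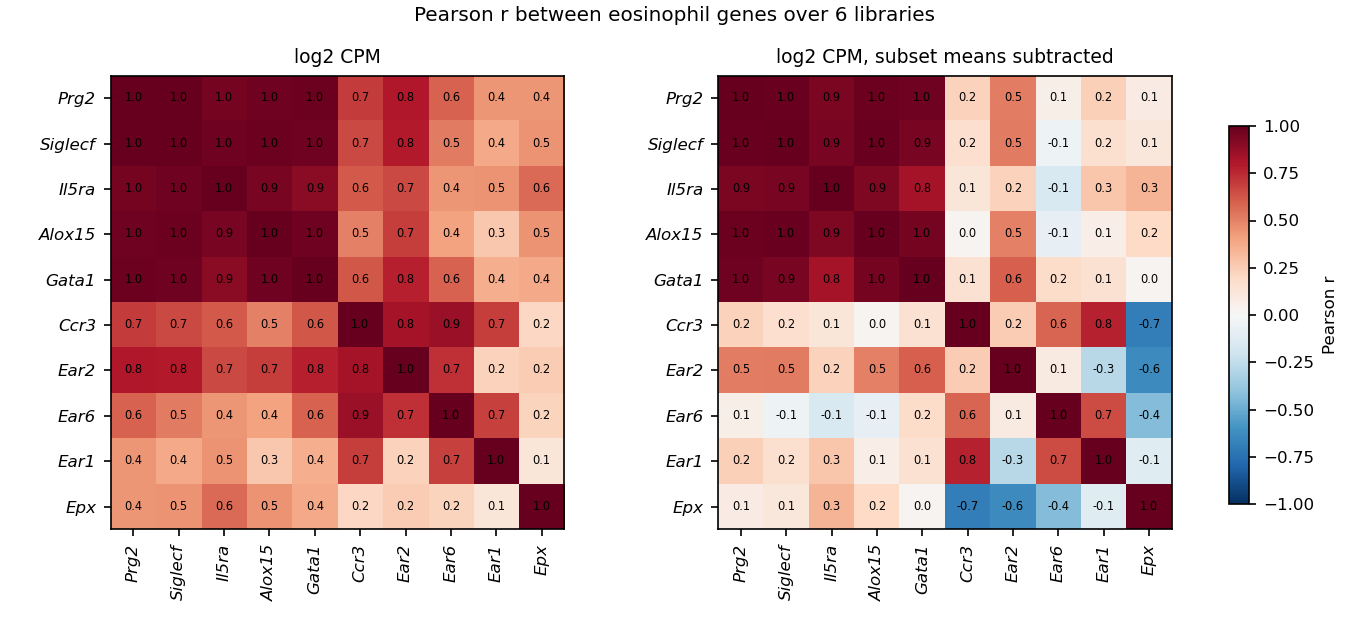
Pearson r between the 10 eosinophil genes over 6 libraries, of log2 CPM (left) and after subtracting the mean of each subset (right), in colour from -1 to 1. The upper left block of Prg2, Siglecf, Il5ra, Alox15 and Gata1 runs from 0.90 to 1.00 on the left and from 0.83 to 0.99 on the right.

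Among the genes outside the list whose batch-centred log2 CPM was most like the mean of the members were Klf7 (r = 0.998 over 6 libraries), D430042O09Rik (0.994), 2010109A12Rik (0.994) and Csnk1e (0.992). Among 11007 genes whose mean log2 CPM reached 1, 58 (0.527%) had an r above 0.95. Klf7, a transcription factor, had 55, 51.7 and 137 CPM in F4/80high against 76, 96.2 and 189 CPM in F4/80low, so it was higher in batch 2, unlike the eosinophil genes called lower there.

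Upstream sequence was read for the 8 members found in the RefSeq promoter table of GRCm38.p6; Prg2 and Alox15 were not among them. The letters AGATAA or TGATAA, each also with G as the last letter, on either strand, which GATA factors can bind, occurred in the 250 bases before the gene start of 2 of the 8, Ccr3 and Il5ra, and in 26.5% of 32851 promoters of that length. The last 120 bases before the start of both genes are shown, Ccr3 at chr9:124021851-124021970 (plus strand) and Il5ra at chr6:106749038-106749157 (minus strand), with the matches in capitals:
Ccr3: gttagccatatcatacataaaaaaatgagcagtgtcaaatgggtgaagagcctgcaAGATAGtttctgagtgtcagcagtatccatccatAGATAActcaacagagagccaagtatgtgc
Il5ra: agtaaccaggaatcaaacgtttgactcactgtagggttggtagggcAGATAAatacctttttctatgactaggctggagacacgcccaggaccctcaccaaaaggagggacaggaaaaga
The matches are a description of the letters and not of binding, and the levels of both genes beside that of Gata1 are given above.

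Other genes of eosinophil biology were read from 5 lists with 47 genes, of which 34 were in the tables and 33 were tested. edgeR called 0 of them, 4 had an unadjusted p under 0.05 and a higher level in F4/80high against 5 a lower one, and their median log2 difference was -0.40, against 0.01 over all genes. Of all 14776 genes tested, 482 were higher and 636 lower at that unadjusted p. The genes of the 5 lists are used by many myeloid cells. DESeq2 with batch called Cebpa (1.15, adjusted p = 0.00983) and Ccl8 (1.59, 0.0258) higher and Alox5 (-1.04, 0.0252) lower in F4/80high. Of all genes, that fit called 46 higher and 104 lower. With the experiment as a block, edgeR called Ccl7 (2.05, 0.0268) and DESeq2 called Ccl7, Ccl8, Cebpa and Alox5. Over all genes this block gave 34 higher and 42 lower by edgeR, and 132 higher and 225 lower by DESeq2.

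Chemokines on the list of eosinophil growth factors and attractants were read in the same libraries. Ccl7, a ligand of CCR3 and other receptors, had 214, 1110 and 261 CPM in F4/80high against 58, 308 and 48.7 CPM in F4/80low, above its partner library in each experiment. Ccl8 had 65.2, 54.8 and 18.1 CPM in F4/80high against 14.3, 37 and 3.42 CPM in F4/80low. Ccl7 and Ccl8 were thus higher in the subset with less of the eosinophil genes. Ccl5, on the same list, had no common direction, with 134, 40.6 and 115 CPM in F4/80high against 55.3, 82.2 and 88.7 CPM in F4/80low. Ccl11, the main eotaxin, was at 0.569 to 6.38 CPM, and Ccl24 ran from 0.114 to 78.5 CPM with its highest value in F4/80low replicate 2.

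Of the lineage factors, Cebpe, which is needed for granule genes of granulocytes, had 16.3, 8.63 and 2.38 CPM in F4/80high against 23.2, 47 and 4.67 CPM in F4/80low (log2 difference -1.35, SE 0.39). Gata2 had 11.5, 3.67 and 11 CPM in F4/80high against 15, 18.7 and 23 CPM in F4/80low, and Cebpa, a factor of granulocytes and monocytes, had 48, 78.7 and 213 CPM in F4/80high against 29.6, 27.3 and 98.6 CPM in F4/80low. Among the receptors Csf2rb, the chain shared by the receptors of IL-3, IL-5 and GM-CSF, was at 244, 203 and 1180 CPM in F4/80high against 444, 305 and 2170 CPM in F4/80low. Cysltr2, a leukotriene receptor, went the other way, with 9.98, 2.97 and 3.56 CPM in F4/80high against 3.63, 1.52 and 0.911 CPM in F4/80low. Alox5, which starts leukotriene synthesis, had 74.7, 117 and 39.5 CPM in F4/80high against 170, 192 and 98.5 CPM in F4/80low.

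Markers of other granulocytes were also lower in F4/80high. All 10 neutrophil markers were lower in F4/80high, with a median log2 difference of -1.28. Of these, 8 had an unadjusted p under 0.05 by edgeR, against 4.3% of all genes in this direction. Their summed level was 752 to 2140 CPM in F4/80high against 1530 to 4900 CPM in F4/80low, and none was at 0 in any library. edgeR called 0 of the neutrophil markers with the batch term. With the experiment as a block it called 6 (Camp, Cxcr2, Mmp8, Ngp, S100a8 and S100a9), against 0.284% of all genes lower. DESeq2 with batch called 5 lower (Camp, Ltf, Mmp8, Ngp and Retnlg), against 0.797% of the genes to which it gave an adjusted p. With the block it called 9, all but Ly6g, against 6 eosinophil genes and 1.72% of those genes. The 10 markers of mast cells and basophils also had log2 differences below 0 in the edgeR fit with batch, with a median of -0.88. Not all were lower in every experiment: Mcpt4 had 9.98 CPM in F4/80high against 9.09 CPM in F4/80low in experiment 1. The list medians were -0.30, -2.29 and -1.14 in experiments 1, 2 and 3. edgeR called 0 of them under either design, and DESeq2 with the block called 3 (Hdc, Kit and Mcpt4). Their summed levels were 38.5 to 334 CPM in F4/80high against 94 to 870 CPM in F4/80low. Across experiments the sums of this list did not follow those of the eosinophil genes: they were lowest in experiment 2 and highest in batch 2. The batch 2 sums were mostly Hdc and Kit, at 234 and 91.2 CPM in F4/80high and 466 and 383 CPM in F4/80low. Tpsb2, Cma1, Cpa3, Mcpt4 and Fcer1a were instead highest in experiment 1 in both subsets. No marker had an unadjusted p under 0.05 between the subsets by edgeR. Mcpt8, a basophil protease, was at 0 in 3 libraries and no higher than 0.576 CPM. The sort took Lin- cells, and the cells that Lin covered are not listed for it. The study's antibodies include Ly6G, a neutrophil protein, in the colour also used for B, T and NK cell antibodies and in another colour. Whether Ly6G was part of Lin in the sort is not stated. The part of these cells in the eosinophil gene difference was not tested.

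The macrophage list went the other way, with 7 of 10 genes higher in F4/80high and a median log2 difference of 0.54. Its summed levels were 5840 to 11600 CPM in F4/80high against 4700 to 6260 CPM in F4/80low. The higher sums rested in large part on C1qa and C1qb. C1qa had 970, 2460 and 542 CPM in F4/80high against 199, 975 and 83 CPM in F4/80low. C1qb had 1410, 3400 and 725 CPM against 340, 1510 and 137 CPM. Ptprc was instead lower in F4/80high in each experiment, and Itgam in experiments 1 and 3. Mertk, an efferocytosis receptor, was called higher by DESeq2 with batch (1.64, adjusted p = 0.016), and Mertk, C1qa and C1qb were called higher by edgeR with the experiment as a block. Of all genes, 46 were called higher by that DESeq2 fit and 34 of 14776 by that edgeR fit. Erythroid and megakaryocyte markers, which bear on Gata1, summed to 13.6 to 70.8 CPM in F4/80high against 28.6 to 128 CPM in F4/80low, with 7 of 9 lower in F4/80high and Klf1 at 0 in 3 libraries. Of 5 alveolar macrophage markers in the tables, which bear on Siglecf, 3 were lower in F4/80high, with summed levels of 13.1 to 31.8 CPM in F4/80high against 10.8 to 41.7 CPM in F4/80low, and Marco was at 0 in 3 libraries. Of 6 large peritoneal macrophage markers 5 were lower in F4/80high, with summed levels of 12.3 to 21.1 CPM and 21.6 to 28.3 CPM. The B cell markers showed no common direction, with 3 of 5 tested higher and summed levels of 52.8 to 346 CPM in F4/80high against 39.2 to 300 CPM in F4/80low.

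**Figure D5:**
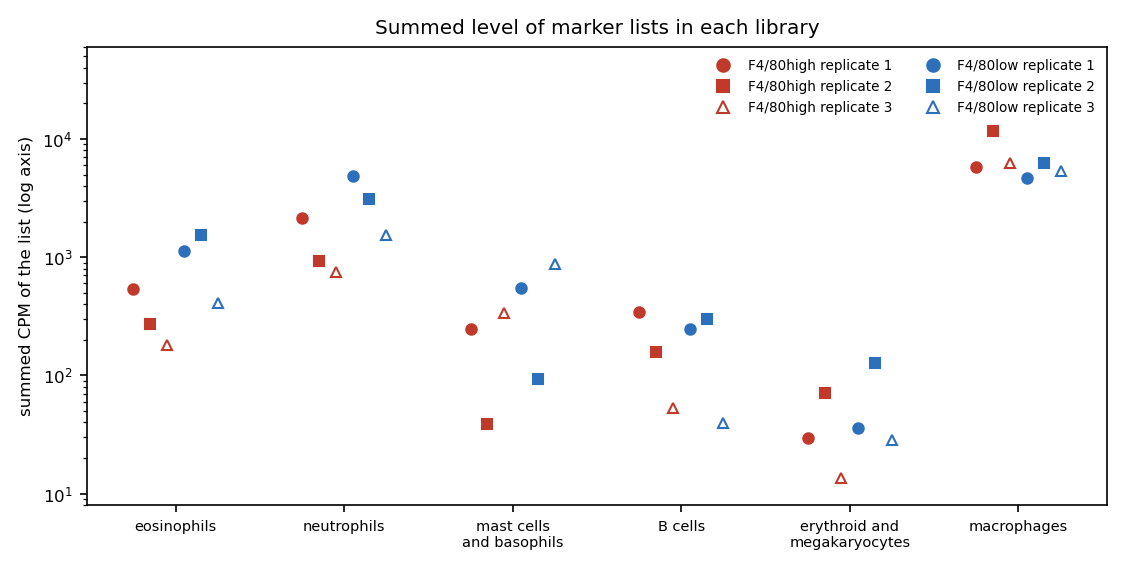
Summed CPM of the marker lists of 6 cell types in each library, on a log axis, with open symbols for batch 2. Eosinophil, neutrophil and mast cell lists are lower in F4/80high than in F4/80low of the same replicate, and the macrophage list, at 4700 to 11600 CPM, is higher. The higher macrophage sums rest in large part on C1qa and C1qb.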

How the data were processed

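Bulk RNA-seq libraries of 3 F4/80high and 3 F4/80low TAM samples were analysed. The authors deposited raw read counts per gene with gene length and biotype, processed at a sequencing core with its routine workflow. Aligner, counting rule, strand and annotation are not given in the sources used here. Library totals were 16045281 to 43604373 counts, and the floor of 3 counts covers counting error only.

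Protein-coding genes with at least 10 counts over 6 libraries (14776) were fitted with edgeR 4.0.16 (quasi-likelihood test, TMM, terms for batch and subset) in R 4.3.3, with Benjamini-Hochberg adjustment over all genes tested. A gene was called at an adjusted p under 0.05 where its log2 fold change also exceeded 1 in size. The batch was read from the study's principal component plot, since the labels give none. The SE was the log2 fold change divided by the square root of the F statistic. For correlations, log2 CPM had 2 as the prior count. DESeq2 1.42.0, other scalings and filters, the replicate block and leaving out libraries were alternatives.

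The members and lists were chosen with earlier results of these data known. Named genes are the members, Adgre1, Csf1r, Cd68, up to 3 genes of each list with the smallest p in each direction and all called genes, and the 5 most alike genes, of which 1 is not reported here. Marker genes cited at 0, Ccl11 and Ccl24 were chosen after their values were seen. Same-numbered replicates were taken as pairs of 1 experiment, which the labels do not state: after subtracting subset means, each pair had an r of 0.745, 0.729 and 0.907 over 10089 genes. Replicates of different numbers were not compared in this way, so these values cannot show which replicates share an experiment. Replicates came from separate experiments.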

Additional observations from a re-analysis of the deposited data

Results flagged for a closer look

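Among the members and the genes that the naming rule takes from each list (the 3 smallest p-values in each direction), 6 had a pair of batch 2 that differed in sign from both pairs of batch 1, a difference that was not tested (log2 CPM, F4/80high minus F4/80low). Ear1 was at 1.05 in batch 2 and at -0.20 and -4.64 in experiments 1 and 2, with 5 and 2 counts in the libraries of batch 2. Car4, an alveolar macrophage marker, was at 0.22 against -1.63 and -2.56, with 5 and 4 counts in F4/80high and F4/80low of batch 2. The cytokine gene Il4 was at 0.32 against -0.36 and -2.40, with 79 and 60 counts there. Hrh4, a histamine receptor near the floor, was at -1.49 against 1.40 and 3.31. Gp1bb, a platelet gene, was at -0.54 against 0.45 and 0.32, with 2 and 3 counts in F4/80high and F4/80low of batch 2. Garnl3, a peritoneal macrophage marker, was at 2.44 against -0.13 and -0.71, with 14 and 2 counts there. Signs that rest on so few counts are uncertain.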

How the results depend on the processing

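All members but Ear1 had a lower level in F4/80high under all 17 settings. These settings share libraries and are not separate checks. Leaving out either library of batch 2 gave nearly the estimates of replicates 1 and 2 only, as for Prg2 at -2.11, -2.11 and -2.10. Leaving out 1 library, the log2 difference of Ear1 ran from -4.27 to 0.20, the latter without F4/80low replicate 2. DESeq2 with batch called 150 genes, 6 of them members and 3 other eosinophil genes. With the replicate block edgeR called 76 genes, 0 members and 1 other eosinophil gene, and DESeq2 called 357, 6 and 4. Leaving out 1 library gave 0 to 55 genes and 0 to 1 members, the highest values without F4/80high replicate 1, and 1 to 5 members lower in batch 2, the lowest without F4/80low replicate 3. The median r of the members was 0.62, and 0.23 with subset means and 0.91 with experiment means subtracted, the latter resting on 3 pair differences. It was 0.37 to 0.78 leaving out 1 library, lowest without F4/80low replicate 2. The GENCODE M21 biotype, chosen after seeing the data, left 0 calls. The cause of these differences was not tested. Low counts limit Epx and Ear1, at or under 5 counts in several libraries.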
